A study of Mus musculus with 4 samples.

Results

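The proteasome subunit genes described here were taken from the deposited tables by symbol: every Psma, Psmb, Psmc, Psmd or Psme symbol followed by a number, without the inducible catalytic subunits Psmb8, Psmb9 and Psmb10 and without pseudogene symbols, of which there were 0. This gave 41 of 22558 gene symbols. Among them were 7 alpha and 7 beta subunits of the core, 6 ATPases and 3 other subunits of the base, 8 lid subunits, 3 chaperones of base assembly and 4 activator genes. The remaining 3 were Psma8, an alpha subunit of the testis, Psmb11, a beta subunit of the thymus, and Psmc3ip, a recombination protein whose symbol fits the pattern although it is no proteasome subunit.

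The measurements were mRNA-seq of whole retinas from mice of about 8 weeks of age on a mixed C57BL/6 and 129 background, in 4 libraries that were each a group of their own. Control mice had the genotype +/+; R26R-DTA/+ and injured mice, called DTA below, had Msi1-CreERT2/+; R26R-DTA/+, and both were sampled at day 1 and at day 5 after injury; the libraries are called early and late for these days. Mice of both genotypes thus carried 1 R26R-DTA allele, which makes the A chain of diphtheria toxin, a blocker of protein synthesis, where Cre recombinase has acted. The cells hit are those in which the Msi1 driver gives active recombinase; the way it was activated and the mice behind each library are not stated in the labels.

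The proteasome is the barrel-shaped protease that degrades proteins marked with ubiquitin. Its core is a stack of alpha and beta rings, in which Psmb5, Psmb6 and Psmb7 carry the active sites; a cap made of a base, whose ATPases unfold the substrate, and a lid, whose Psmd14 removes ubiquitin, sits on the core. Separate activators can take the place of the cap, and immune signals such as interferon gamma are known to exchange the active subunits for Psmb8, Psmb9 and Psmb10. In photoreceptors, which make and turn over large amounts of protein, proteasome capacity is a known point of vulnerability.

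Values are FPKM, fragments scaled to transcript length and library size, so levels of different genes are compared per length. A difference is the log2(FPKM + 1) of the DTA library minus that of the control of the same day. With 1 library per group there was no replicate and no test across samples, and the only measure of spread was the difference between the 2 control libraries. A gene was tested where it reached 5 FPKM in one of the libraries compared. It was called, and only then said to have risen or fallen, where its difference was at least 1 in size and larger than its difference between the controls; a second rule asked for 0.5 in place of 1. Of the 41 genes, 38 passed the floor and 3, Psma8, Psmb11 and Psmc3ip, did not.

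The sequencing depth, estimated from the lowest values, was 73.8 M fragments in the early control, 98.9 M in early DTA, 35.6 M in the late control and 28.8 M in late DTA. The early DTA table held only 5799 symbols, on chromosomes 1, 10, 11, 12, 13 and part of 14, and 15 of the 41 genes. Rod markers matched the labelled tissue: 7 of them summed to 9145 and 12295 FPKM in the early and late controls, and 8 to 4923 FPKM in late DTA. The 2 controls differed from each other beyond the day. A lens marker list summed to 1488 FPKM in the early control and 236 in the late control, and a pigment epithelium list to 69.6 and 14.9. In late DTA these lists were lower again, at 14.3 and 5.67 FPKM, and a list of Müller glia markers was at 1819 and 1459 FPKM in the controls and 692 in late DTA. The Müller glia genes did not move together at day 5. Glul went from 888 FPKM in the late control to 159 in late DTA. Of the 7 genes 5 were lower and 2, Vim (54.8 to 127 FPKM) and Sox9, were higher. Xist, expressed from the inactive X chromosome, was at 0.0060 FPKM in the early control, 53.7 in the late control and 60.4 in late DTA. The Y-linked Ddx3y was at 15.6, 0.175 and 0.275 FPKM in the same order. The part of these differences in the results was not tested.

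At day 5 proteasome transcripts were moderately higher in the DTA retina as deposited: all 38 subunit genes tested lay above 0, with a median difference of 0.42 and a range of 0.10 to 1.02, whereas 30 lay above 0 and 8 below after the libraries were rescaled by either of the scalings described next. By the first rule 1 subunit gene rose, the activator Psme2, and 0 fell, where 6.74% of all genes tested rose. By the 0.5 rule 9 rose: Psma3 of the core, Psmc6 of the base, Psmd3, Psmd11 and Psmd12 of the lid, the base chaperone Psmd5, and the activators Psme1, Psme2 and Psme4. That is 9 of 38, near the 26.5% of all genes tested that rose by this rule, while 0 subunits and 4.58% of all genes fell. In a whole retina, fewer cells of a type and less RNA per cell cannot be told apart.

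The rest of the transcriptome was shifted the same way as deposited. The median difference of all 9895 genes tested at day 5 was 0.26, and 74.6% lay above 0; 29 of the 38 subunit genes lay above that median and 9 below. Each library was scaled by its median ratio to the early control, over genes at 5 FPKM or more in both. This brought the median of all genes to 0.029 and that of the tested subunits to 0.19. A second scaling used the summed FPKM of genes with a value in all 4 libraries, hence only genes in the shortened early DTA table. Photoreceptor markers and the 100 most abundant of these genes were left out of the sum. It gave medians of 0.024 and 0.18 in the same order. Under these scalings only Psma3 and Psme2 kept a difference of at least 0.5, at 0.52 and 0.79 with the median ratio. The 8 subunits that then lay below 0 were Psma4, Psmb2, Psmb4, Psmc1, Psmc3, Psmc5, Psmd1 and Psmd8, between -0.14 and -0.019. Among all genes, the 0.5 rule called 2623 higher and 453 lower as deposited, and 1298 higher and 932 lower after the median ratio scaling. Beside the scaling, the choice of control mattered: set against the early control, the median of the tested subunits was 0.26 and that of all genes 0.20, and 4 of 38 subunits rose by the 0.5 rule where 23.5% of all 10023 genes tested did.

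**Figure D1:**
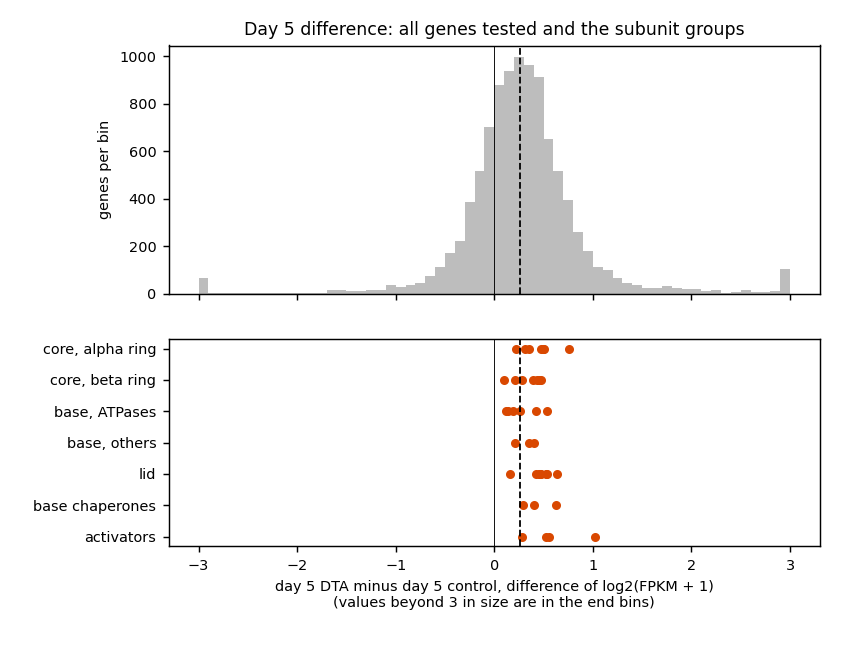
The upper panel is a histogram of the day 5 difference of log2(FPKM + 1) for the 9895 genes tested, in genes per bin of 0.1, with the median of 0.26 dashed; the lower panel shows each of the 38 tested subunit genes as a point in its group, on the same axis. All points lie right of 0 as deposited (30 of 38 after rescaling), mostly inside the bulk of the histogram, and the point farthest right is Psme2 at 1.02.

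Promoters of these genes are known to be read by NFE2L1 and NFE2L2, factors that bind antioxidant response elements, and by ETS and NF-Y factors. The core letters of these elements were searched on both strands in RefSeq windows of 300 bases, 250 before to 50 after the start of transcription (build GRCm38.p6), which 34 of the 41 genes had, Psmc3ip among them. The element core TGACNNNGC was in 6 of the 34 windows, 17.6%, as in 17.6% of the 7035 genes expressed at 5 FPKM or more and 14.0% of all 27025 genes with a window. CCAAT was in 14, or 41.2%, against 43.6% of the expressed and 41.1% of all genes. The ETS core TTCCGG was in 18, or 52.9%, against 32.5% of the expressed and 16.7% of all genes. Without Psmc3ip, which is no subunit, CCAAT was in 39.4% and the ETS core in 51.5% of 33 windows. Of the genes that rose by the 0.5 rule, Psmd12, Psmc6 and Psme4 had both an antioxidant response element core and an ETS core, and their upstream sequences are printed for that reason, with that of Psme2, the gene with the largest difference, for contrast. Each shows the 250 bases before the start, 5′ to 3′ on the gene's own strand, with the matched letters in capitals. Psmd12 is at chr11:107479278-107479527 (plus strand), Psmc6 at chr14:45329574-45329823 (plus), Psme4 at chr11:30771525-30771774 (plus) and Psme2 at chr14:55591102-55591351 (minus), all in GRCm38.p6.
Psmd12: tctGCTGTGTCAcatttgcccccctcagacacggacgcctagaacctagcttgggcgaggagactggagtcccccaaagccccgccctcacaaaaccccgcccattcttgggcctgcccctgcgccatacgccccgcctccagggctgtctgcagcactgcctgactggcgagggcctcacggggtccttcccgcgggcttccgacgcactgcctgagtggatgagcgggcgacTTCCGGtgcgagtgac
Psmc6: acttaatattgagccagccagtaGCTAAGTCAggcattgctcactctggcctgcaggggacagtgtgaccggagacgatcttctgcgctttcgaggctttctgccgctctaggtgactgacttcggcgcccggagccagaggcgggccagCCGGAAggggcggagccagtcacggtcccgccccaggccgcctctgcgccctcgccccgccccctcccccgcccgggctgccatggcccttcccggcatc
Psme4: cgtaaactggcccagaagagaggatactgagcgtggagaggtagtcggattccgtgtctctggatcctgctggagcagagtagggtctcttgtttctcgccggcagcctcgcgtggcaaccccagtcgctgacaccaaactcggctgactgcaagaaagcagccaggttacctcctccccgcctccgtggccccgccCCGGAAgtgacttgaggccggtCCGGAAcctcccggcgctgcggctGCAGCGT
Psme2: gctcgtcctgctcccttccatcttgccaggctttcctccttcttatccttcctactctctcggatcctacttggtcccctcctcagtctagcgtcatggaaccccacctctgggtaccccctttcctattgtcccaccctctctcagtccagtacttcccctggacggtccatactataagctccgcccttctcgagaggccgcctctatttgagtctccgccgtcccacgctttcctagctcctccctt

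In Psmd12 the capitals mark an element core read on the minus strand from position -247 relative to the start and an ETS core from -16. In Psmc6 they mark an element core from -227 and an ETS core from -100. Psme4 has ETS cores from -53 and -31, and an element core from -7 that runs past the start, so its last letters lie beyond the printed bases. No match in these windows overlapped another. The Psme2 window has 0 matches to any of the motifs, which says only that these letters are not in it. An interferon-type motif, GAAANNGAA, was searched after the values of Psme2 had been seen: it was in 6 of 34 windows, 17.6%, against 8.07% of the expressed and 9.76% of all genes. Psme1 holds it as TTCGCTTTC from base 11 after the start.

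**Figure D2:**
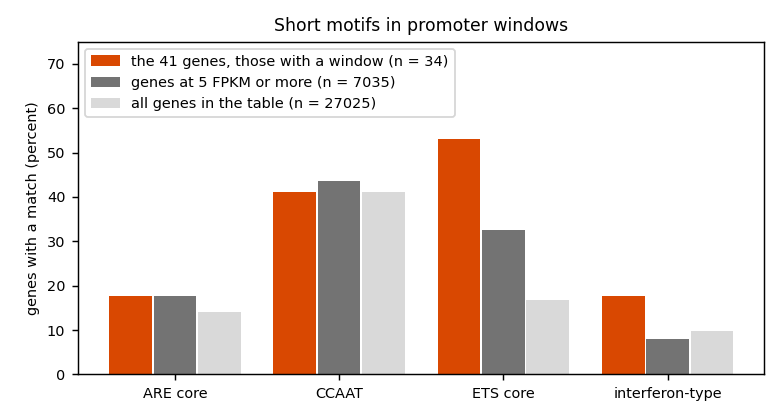
Bars give the percent of genes whose 300-base promoter window holds each motif on either strand, for the 34 of the 41 genes with a window (Psmc3ip included), the 7035 genes at 5 FPKM or more and all 27025 genes. The ETS core stands at 52.9% in these genes and 32.5% in the expressed genes, while the antioxidant response element core stands at 17.6% in both.

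In the healthy retina the subunits were mostly abundant transcripts, over an 11.9-fold range in the early control and a 12.1-fold range in the late control. The 38 tested genes ran from 6.64 FPKM (Psmd10) to 79.0 FPKM (Psmb4) in the early control, with a median of 33.4, and from 6.15 to 74.6 FPKM with a median of 29.9 in the late control. In late DTA the median was 42.4 FPKM and the highest gene was Psmb5. The median subunit stood above 92.2% and 91.9% of all symbols in the controls and above 93.7% in late DTA, and together the 38 made up 0.442%, 0.417% and 0.514% of all summed FPKM. Their order was much the same in each library: Spearman's rho across the 38 genes, which are not independent replicates, was 0.973 between the controls and 0.973 between the day 5 libraries. Although the particle holds its core subunits in equal number, their levels per length were not equal. Core genes differed up to 2.99-fold among themselves in the early control and lid genes up to 3.97-fold. The median core gene was 1.8 times the median lid gene in both controls and 1.54 times in late DTA, a ratio within a library that no scaling changes. Psma4, Psma5, Psmb3, Psmb5, Psmd2, Psmd11 and Psme2 have near-identical copies elsewhere in the genome, at least 95% identical over at least 50% of a transcript, so their levels are uncertain where fragments could be split.

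**Figure D3:**
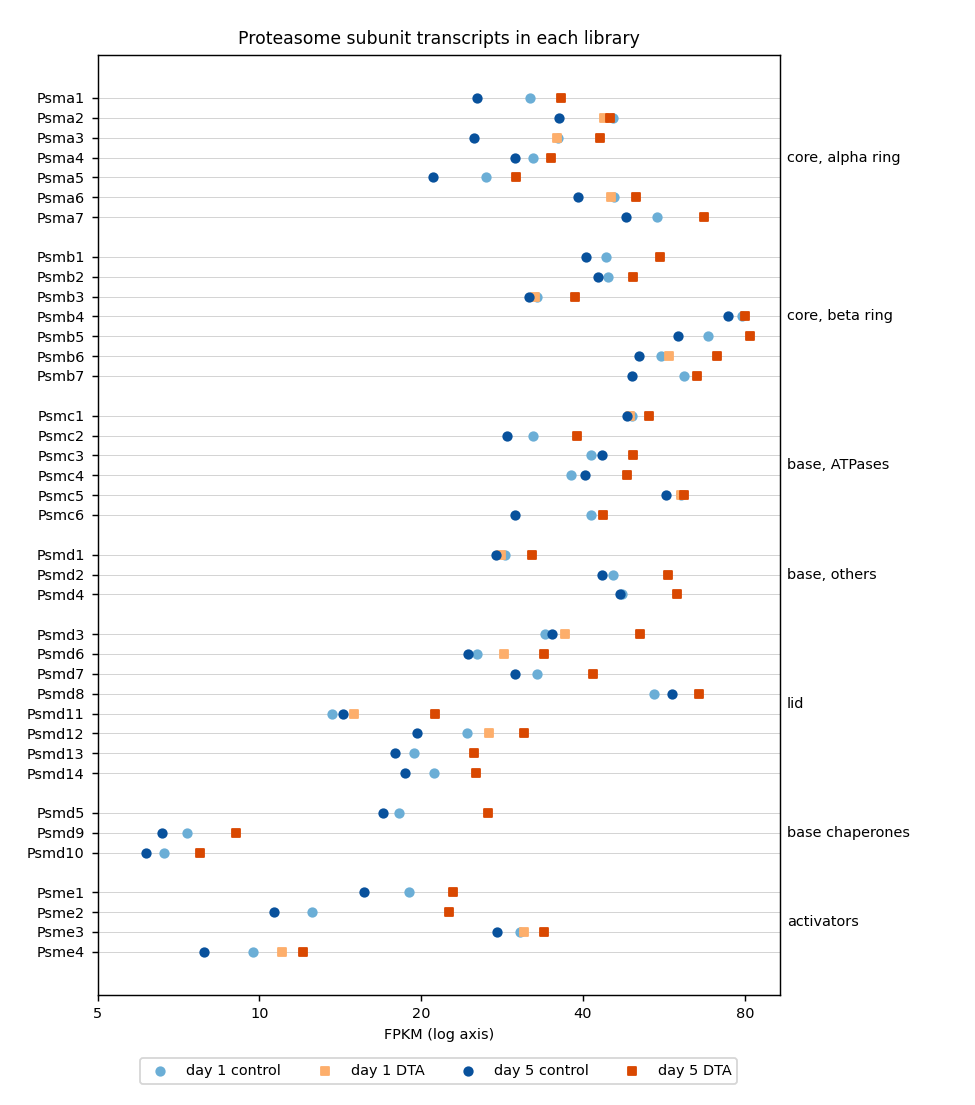
Each row is a subunit gene and each mark its FPKM in 1 library, on a log axis: circles for the controls, squares for DTA, pale for day 1 and dark for day 5. The day 5 DTA mark lies right of both controls in 37 of the 38 rows as deposited (Psma2 is the exception), and the core and base rows lie right of most lid rows. Of all genes tested, 74.6% were higher in day 5 DTA than in the day 5 control and 67.1% higher than in the day 1 control.

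Of the alpha ring, the gate that substrates pass, Psma3 differed most. Psma3 (chr12:72075610-72095910, mm9) was at 36.0 FPKM in the early control, 35.9 in early DTA, 25.0 in the late control and 43.0 in late DTA. Its day 5 difference was 0.76; the late control lay 0.51 below the early control, and against the early control the difference was 0.25. Psma2 was at 45.4 and 36.1 FPKM in the controls, 43.8 in early DTA and 44.9 in late DTA, and so did not leave the range of the controls. Psma6 went from 39.1 FPKM in the late control to 50.2 in late DTA, with 45.8 in the early control and 45.0 in early DTA. The other 4 have no early DTA value. Psma1 was at 32.0 and 25.4 FPKM in the early and late controls and 36.3 in late DTA, a difference just under the 0.5 that the second rule asks for. Psma7, the most abundant of the ring, was at 54.8, 48.1 and 67.1 FPKM in that order, and Psma5, the least abundant, at 26.4, 21.1 and 30.0. Psma4 was at 32.3, 29.9 and 35.0 FPKM. The 7 alpha genes had a median day 5 difference of 0.47 with 7 above 0 as deposited, and of 0.23 with 6 above 0 after the median ratio scaling. All 7 were lower in the late than in the early control under each scaling.

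The beta ring holds the active sites. Psmb5, the chymotrypsin-like subunit, was at 68.4 FPKM in the early control, 60.2 in the late control and 81.7 in late DTA. Psmb6, the caspase-like subunit, was at 55.8 and 50.8 FPKM in the controls, 57.9 in early DTA and 71.1 in late DTA. Psmb7, the trypsin-like subunit, was at 61.8, 49.3 and 65.1 FPKM in the early control, late control and late DTA. The differences of these 3 at day 5, 0.43, 0.48 and 0.39, were alike in size and none reached 0.5. Psmb4, the most abundant subunit in the controls, was at 79.0, 74.6 and 80.1 FPKM, the smallest difference of all 38 at 0.10. Psmb1 was at 44.2, 40.4 and 55.6 FPKM and Psmb2 at 44.5, 42.6 and 49.5, differences of 0.45 and 0.21. Psmb3 was at 32.8 and 31.8 FPKM in the controls, 32.6 in early DTA and 38.7 in late DTA. No beta gene was called by either rule. Their median was 0.39 with 7 of 7 above 0 as deposited, and 0.15 with 5 of 7 above 0 after the median ratio scaling.

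Among the ATPases of the base, which unfold substrates and open the core, the differences were smaller. Psmc6 (chr14:45949499-45968746, mm9) was the only ATPase gene to pass the 0.5 rule, at 41.4 FPKM in the early control, 29.9 in the late control and 43.6 in late DTA. As with Psma3, the late control was the lowest of its libraries: the difference was 0.53 against it and 0.072 against the early control. Psmc2 was at 32.4, 29.0 and 39.0 FPKM in the same order, a difference of 0.42. Psmc3 was at 41.3, 43.4 and 49.6 FPKM and Psmc4 at 38.0, 40.3 and 48.3. Both of these were higher in the late than in the early control, unlike most subunits. Psmc1 (49.3 and 48.3 FPKM in the controls, 48.9 in early DTA and 53.2 in late DTA) and Psmc5 (60.8, 57.0, 61.0 and 61.8 FPKM) were nearly level over all 4 libraries, at 0.14 and 0.11 at day 5. The median of the 6 ATPases was 0.22, below that of all genes; 6 of 6 lay above 0 as deposited, but 3 of 6 after either rescaling, where the median was -0.016 or -0.021.

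The other base subunits hold the receptors for ubiquitin and its shuttles. Psmd2 was at 45.4, 43.4 and 57.6 FPKM in the early control, late control and late DTA, and Psmd4, a ubiquitin receptor, at 47.3, 46.8 and 59.9, differences of 0.40 and 0.35. For both the controls lay close together, 0.063 and 0.016 apart. Psmd1, the large scaffold of the base, was at 28.6 and 27.6 FPKM in the controls, 28.1 in early DTA and 32.1 in late DTA, a difference of 0.21 as deposited and -0.024 after the median ratio scaling.

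The lid had 3 of the 9 genes that passed the 0.5 rule. Psmd12 (chr11:107340842-107359350, mm9), a scaffold subunit, was at 24.3 FPKM in the early control, 26.7 in early DTA, 19.7 in the late control and 31.1 in late DTA, a difference of 0.63 at day 5. Psmd3, another scaffold subunit, was at 33.9, 37.0, 35.1 and 51.0 FPKM in that order, and Psmd11 at 13.7, 15.0, 14.3 and 21.2. For Psmd3 and Psmd11 the controls differed by 0.046 and 0.063 and the day 5 differences, 0.53 and 0.54, passed the rule against either control. Both fell short of it after rescaling, at 0.29 and 0.30 with the median ratio. Psmd6 was at 25.4, 28.5, 24.5 and 33.9 FPKM, with a day 5 difference of 0.45. Psmd14, the deubiquitinase, and Psmd7, its inactive partner, have no early DTA value: Psmd14 was at 21.1, 18.7 and 25.3 FPKM in the early control, late control and late DTA, and Psmd7 at 32.8, 29.9 and 41.8. Their differences were 0.42 and 0.47. Psmd13 was at 19.4, 17.9 and 25.1 FPKM, a difference of 0.47. Psmd8, the most abundant lid gene, was at 54.3, 58.6 and 65.7 FPKM, and its 0.16 at day 5 was the smallest in the lid. The lid median was 0.47 with 8 of 8 above 0 as deposited, and 0.23 with 7 of 8 above 0 after the median ratio scaling.

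Psmd5, Psmd9 and Psmd10 are not part of the finished particle but hold ATPases together while the base is assembled. Psmd5 (chr2:34707609-34726482, mm9) rose by the 0.5 rule: it was at 18.2 FPKM in the early control, 17.0 in the late control and 26.7 in late DTA, a difference of 0.62, and of 0.53 against the early control. Psmd9 was at 7.33, 6.59 and 9.03 FPKM. Psmd10, on the X chromosome, was the least abundant of the tested genes, at 6.64, 6.15 and 7.77 FPKM. The controls differed in Xist and Ddx3y as given above, and by -0.096 in Psmd10. These 3 lay above 0 at day 5 under each scaling.

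**Figure D4:**
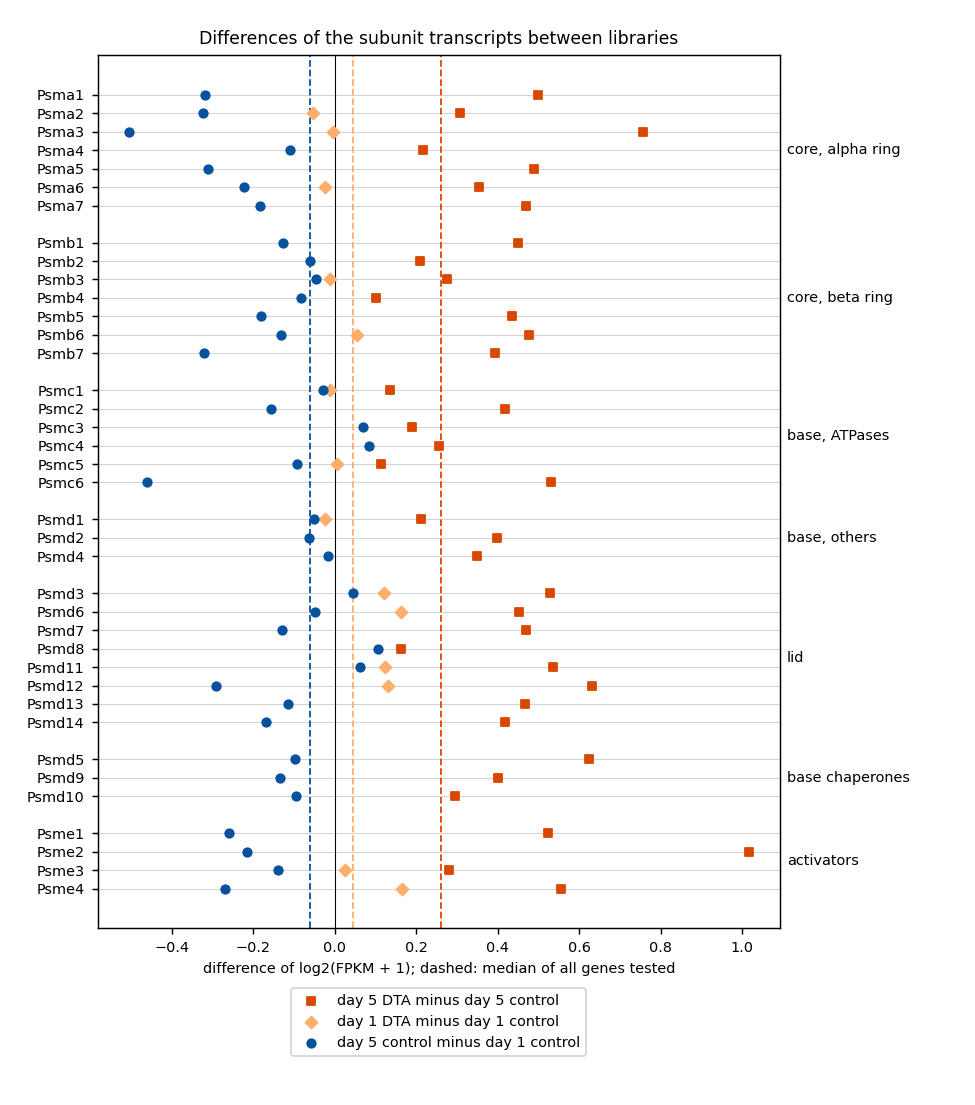
Each row is a subunit gene and each mark a difference of log2(FPKM + 1): squares for DTA minus control at day 5, diamonds for DTA minus control at day 1 (14 genes) and circles for the day 5 minus the day 1 control; dashed lines are the medians of all genes tested, 0.26, 0.046 and -0.062. Squares lie right of 0 in all 38 rows as deposited (30 rows after rescaling), while the diamonds lie between -0.052 and 0.17.

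Among the activators Psme2 differed most; it is the beta chain of PA28, a ring that interferon is known to induce. Psme2 (chr14:56206277-56209938, mm9) was at 12.5 FPKM in the early control, 10.6 in the late control and 22.6 in late DTA, 2.12-fold above the late control. Its difference of 1.02 was the only one of the 41 to pass the first rule, and was 0.80 against the early control. Psme1, the alpha chain of the same ring and its close neighbour on the chromosome (chr14:56197331-56200364, mm9), was at 19.0, 15.7 and 23.0 FPKM, 1.46-fold above the late control with a difference of 0.52. The beta chain was therefore at 66.0% and 67.9% of the alpha chain in the controls and at 98.2% in late DTA. Psme4, the large nuclear activator PA200, was at 9.72 FPKM in the early control, 11.0 in early DTA, 7.90 in the late control and 12.1 in late DTA, and passed the 0.5 rule at 0.56. Psme3, the nuclear ring PA28 gamma, was at 30.6, 31.1, 27.7 and 33.8 FPKM in that order and at 0.28 was not called. Psme2 has a near-identical copy elsewhere in the genome, 99.4% identical over 82.5% of its transcript, so its level and its call are uncertain.

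Transcripts of microglia and macrophages were far higher in the same library. The 9 marker genes of these cells summed to 19.8 FPKM in the early control, 19.4 in the late control and 155 in late DTA, with 9 of 9 higher there and 0 at an FPKM of 0 in any of these libraries. Each was below the floor of 5 FPKM in both controls and reached it only in late DTA. Markers of lymphocytes and other leukocytes stayed low, 7 genes summing to 0.217, 0.204 and 0.751 FPKM, with Cd3e and Cd3g, components of the T cell receptor complex, at 0 in these 3 libraries. Neither Psme1 nor Psme2 has a early DTA value. The part of microglia and macrophages in the values of Psme1 and Psme2 was not tested.

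The inducible catalytic subunits, which replace the constitutive ones, were low in the controls and rose at day 5. Psmb8, which replaces Psmb5, was at 1.03 FPKM in the early control, 1.43 in the late control and 7.15 in late DTA. Psmb9, which replaces Psmb6, was at 0.746, 0.846 and 5.71 FPKM, and Psmb10, which replaces Psmb7, at 3.99, 4.28 and 13.1. Their differences of 1.75, 1.86 and 1.42 passed the first rule as deposited and exceeded 1 after either rescaling, but were 0.92, 0.87 and 0.96 with a pseudocount of 5 in place of 1. Each of these genes was below the floor of 5 FPKM in both controls and was tested only because late DTA reached it. Within a library, Psmb8 was at 1.50% and 2.37% of Psmb5 in the controls and at 8.75% in late DTA, 3.70-fold the late control. Psmb9 was at 1.34%, 1.66% and 8.03% of Psmb6 (4.83-fold, or 2.61-fold with 1 added to each FPKM, since Psmb9 was under 1 FPKM in the controls), and Psmb10 at 6.46%, 8.68% and 20.1% of Psmb7 (2.32-fold). Between the controls the same ratios differed by 1.58-, 1.24- and 1.34-fold. The constitutive subunit thus remained the more abundant of each pair in all of these libraries. The microglial sum given above was higher in the same library, and its part in these ratios was not tested.

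**Figure D5:**
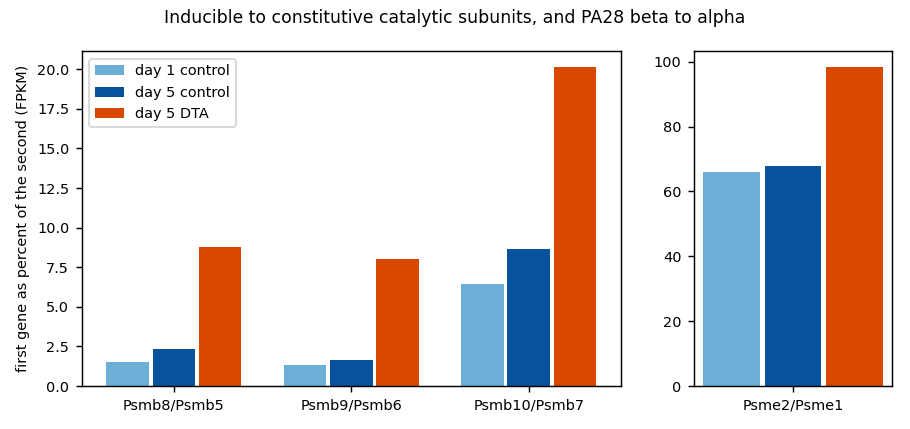
Bars give the FPKM of the first gene as a percent of the second within a library, for the 3 inducible and constitutive catalytic pairs on the left and for the PA28 chains on the right, in the day 1 control, day 5 control and day 5 DTA. In each pair the day 5 DTA bar is the tallest, at 8.75%, 8.03%, 20.1% and 98.2%.

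At day 1 the subunit transcripts of the DTA retina were close to those of the control. The 14 tested genes with a value ran from -0.052 (Psma2) to 0.17 (Psme4), with a median of 0.015 where all 2623 genes tested had 0.046. None was called by either rule, against 6.79% of all genes by the 0.5 rule in either direction. The 4 lid genes were all above 0, Psmd3 at 0.12, Psmd11 at 0.12, Psmd12 at 0.13 and Psmd6 at 0.16, and remained above 0 under either rescaling. Of all 2623 genes tested, 59.6% lay above 0 as deposited. The 3 alpha genes were all below 0, between -0.052 and -0.0043. Over all 15 genes with a value the median was 0.0050 as deposited and -0.038 or -0.056 after rescaling. For Psmd3, Psmd6 and Psmd11 the day 1 difference as deposited was larger than that between the controls, whereas for Psmd12 the controls differed by 0.29. After either rescaling this held for Psmd6 but not for Psmd3 or Psmd11. With the median ratio Psmd3 was at 0.077 at day 1 and 0.10 between the controls, and Psmd11 at 0.082 and 0.12.

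For the 14 genes with a value at both days, the difference as deposited was larger at day 5 in 14 of 14. The share of all genes for this count was not computed. After either rescaling Psmc1 and Psmc5 were lower at day 5 than at day 1. With the median ratio Psmc1 was at -0.10 at day 5 and -0.054 at day 1, and Psmc5 at -0.12 and -0.038. As deposited, the gap between the days had a median of 0.37, from 0.11 (Psmc5) to 0.76 (Psma3). It was 0.21 over the 2537 genes tested at both days. This comparison between days was not tested, and each day has its own control. When the mean of both controls was used at each day, the median over the 15 genes with a value fell to 0.18 from 0.36.

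The controls themselves differed, mostly in one direction. Of the 38 subunits 33 were lower in the late than in the early control; the median was -0.13 where all genes had -0.062. By the 0.5 rule 1 subunit, Psma3, was lower, and 0 were higher, against 5.51% and 1.77% of all 9321 genes tested. The largest differences after Psma3 were those of Psmc6 (-0.46), Psma2 (-0.32), Psmb7 (-0.32) and Psma1 (-0.32). As deposited, the day 5 difference was larger in size than this one in 37 of 38 subunits. In 37 of 38 the late DTA value lay above both controls. Both differences use the late control, so these counts do not stand apart from each other. The shares of all genes for these counts were not computed. After the median ratio scaling the size count did not hold for Psma2, Psmb7 and Psmc6, among others, and was not repeated. As deposited, 74.6% of all genes tested were higher in late DTA than in the late control, and 67.1% higher than in the early control. Day, sex-linked transcripts, lens and pigment epithelium content and depth all differ between the 2 controls and cannot be told apart.

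Of the other genes of the pathway, 33 outside the subunits had values at day 5. By the first rule 5 rose and 0 fell, and by the 0.5 rule 14 rose and 0 fell. Without the inducible subunits these were 2 and 11 of 30, beside 6.74% and 26.5% of all genes tested, so that the first count is at the general share. After either rescaling 3 of the 33, the inducible subunits, passed the first rule and 7 the 0.5 rule. Of all genes, 1298 or 1299 then rose by the 0.5 rule, in place of 2623 as deposited. The count of all genes by the first rule was not computed after rescaling. Among factors that assemble the core, Psmg3 was at 10.7, 10.5 and 22.1 FPKM in the early control, late control and late DTA, a difference of 1.01 that passed the first rule as deposited and was 0.78 after the median ratio scaling. Psmg1, at 11.0, 9.46 and 16.1 FPKM, and Psmg2, at 13.3, 11.0 and 16.3, are chaperones of the alpha ring and passed the 0.5 rule at 0.71 and 0.53. Psmg4 was at 0.42 and Pomp, the maturation factor of the core, at 0.16. The median of these 5 was 0.53, with 5 of 5 above 0 as deposited and 4 of 5 after rescaling.

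Of 13 genes listed as proteasome-bound factors, 6 passed the 0.5 rule, which 26.5% of all genes did. The ubiquitin ligase Ube3c was at 14.7, 14.9 and 27.1 FPKM, a difference of 0.82, and Rad23b, a shuttle for ubiquitinated proteins, at 25.9, 23.3 and 37.3, a difference of 0.66. The others were the deubiquitinase Uchl5 (0.57), the shuttle Ubqln1 (0.55), the inhibitor Psmf1 (0.52) and the ubiquitin receptor Adrm1 (0.51). The group's median was 0.47 with 13 of 13 above 0 as deposited and 12 of 13 after the median ratio scaling, where Ube3c alone of the group kept a difference of at least 0.5, at 0.59. The genes that supply ubiquitin and charge it were not called in either direction: 0 of 6 passed a rule and the median was 0.089 as deposited and -0.15 after the median ratio scaling. Ubb, a polyubiquitin gene, was at 857 FPKM in the early control, 805 in early DTA, 863 in the late control and 899 in late DTA. In this group the ubiquitin-activating enzyme Uba1 had the largest day 5 difference, 0.42, followed by Uba6 at 0.27.

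Among the regulators of subunit transcription, the 2 related factors differed. Nfe2l2, which drives antioxidant genes, was at 10.3 FPKM in the early control, 8.44 in the late control and 19.7 in late DTA, 2.33-fold the late control, and rose by the first rule with a difference of 1.13, which was 0.90 after the median ratio scaling and 0.87 against the early control. Nfe2l1, which drives subunit genes when proteasomes are inhibited, was at 45.9, 43.9, 52.4 and 52.2 FPKM in the early control, early DTA, late control and late DTA, a day 5 difference of -0.0047. Ngly1, the enzyme that removes glycans from Nfe2l1 protein, passed the 0.5 rule at 0.72 and was at 0.43 against the early control. Ddi2, the protease that cleaves it, was at -0.059, and Vcp, the ATPase that extracts it from the membrane, at 0.33. Akirin2, known for import of proteasomes into the nucleus, was at 22.4 FPKM in the late control and 33.2 in late DTA, and was not called because it had no value in the early control. At day 1, 8 of the 33 genes had a value and none was called by either rule.

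Of the genes below the floor, Psmb11 was at 0.0204, 0.0325 and 0.0688 FPKM in the early control, late control and late DTA, and Psma8 at 0.0571, 0 and 0.0630. Psmc3ip was at 3.35 FPKM in the early control, 3.15 in early DTA, 4.53 in the late control and 3.57 in late DTA. It was the only one of the 41 below 0 at day 5, at -0.28, and it was higher in the late than in the early control by 0.35. Its span overlaps that of Mlx on the opposite strand by 51 bases.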

How the data were processed

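The authors deposited 1 table per library of FPKM per gene with lower and upper bounds and a status, per the file headers. Cufflinks 2.1.1, bcl2fastq 1.8.4, CASAVA 1.8.2 and the mouse build mm9 are listed, without roles, per the submitters' processing notes. The aligner and annotation were not given in the sources used here. FPKM is relative to each library's total, so a change in very abundant transcripts moves all others.

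Values with status FAIL or HIDATA were read as missing (0 subunit genes), and loci of 1 symbol were summed. Differences were taken on log2(FPKM + 1), so those of low genes are understated. Folds of a gene between libraries were taken where both values reached 1 FPKM; ratios between the genes of a pair had no such floor. The files hold no counts; depth was estimated by taking the commonest low value of FPKM times length, in genes with transcripts over 1500 bases, as 1 fragment. The authors' bounds had a median half-width of 3.38% to 6.23% over the subunit genes, but in 28 to 31 of 38 genes (13 of 14 in day 1 DTA) the upper bound lay below the FPKM itself, so the bounds were not used as errors. Locus starts count from 0 and have 1 added in print. The day 1 DTA values were used as deposited, which assumes that they were normalised before the table was shortened; over 5783 shared genes the FPKM sums were 93502 to 101950 in the 4 libraries.

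All subunit genes are named with values; of the other pathway genes, those called by either rule are named, and otherwise the up to 3 of a list with the largest day 5 difference, with some known ones added. The genes and lists were chosen with earlier results of these data known. The interferon-type motif, the use of the midpoint of the bounds and the leaving out of genes with copies, and the other settings for pathway genes outside the subunits, were added after seeing the data. The calling was tested on simulated data. Copies of at least 95% identity over at least 50% of a transcript were searched in the mm9 genome with minimap2 2.31; 7 genes had one. Python 3.11.15, pandas 2.3.3, numpy 2.4.6, scipy 1.17.1 and matplotlib 3.10.9 were used. Protein sequences were not used here, and 1 gene of the pathway lists is not reported here by name.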

Additional observations from a re-analysis of the deposited data

Results flagged for a closer look

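Psma3 had differences of opposite sign at the 2 days, -0.0043 at day 1 and 0.76 at day 5, a gap of 0.7617 on the log2(FPKM + 1) scale. The difference between the days was not tested, and the day 5 control was 0.51 below the day 1 control for this gene.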

How the results depend on the processing

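No paired analysis was possible because each group has 1 library, and for the same reason no replicate could be left out. The call of Psme2 by the first rule, the only one among the 41 genes, was lost (0 called) with a pseudocount of 5, either rescaling, the day 1 control and the mean of both controls; it held with a pseudocount of 0.1, the midpoint of the bounds, no floor and no requirement on the controls, and the 0.5 rule called 9. Leaving out genes with near-identical copies also gives 0, by construction, since Psme2 is one of them. With the pseudocounts, rescalings, controls and midpoint, the difference of Psme2 was between 0.78 and 1.08. Under the 0.5 rule 11 genes were higher with a pseudocount of 0.1, 4 with one of 5, 4 against the day 1 control, 4 against the mean of both controls and 2 with either rescaling. Of all genes, 2623 were higher by this rule in the main setting. That count was 2900, 1693, 2359 and 2364 in the other settings in the same order, and 1298 or 1299 with the rescalings. The median day 5 difference over all 41 genes, 0.40, was 0.18 and 0.18 with the scalings and 0.25 against the day 1 control. The median day 1 difference over 15 genes, 0.0050, turned to -0.038 and -0.056 with the scalings and was 0.16 against the day 5 control. Between the controls 0 genes were called by the first rule and 1 by the 0.5 rule. The Psmb9 to Psmb6 ratio was 2.61-fold higher in place of 4.83-fold when 1 was added to each FPKM. The day 5 minus day 1 median over 15 genes, 0.36, was 0.18 with the mean of both controls. The cause was not tested. Single subunit genes were followed across settings where the 0.5 rule called them, 9 at day 5 and Psma3 between the controls. For these, 33 values in other settings no longer passed the rule and none changed sign. Of the 38 tested subunits, 8 lay below 0 at day 5 after either rescaling.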

Other observations

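The 6 subunit genes whose promoter window holds the antioxidant response element core (Psmb5, Psmb6, Psmc6, Psmd12, Psmd9 and Psme4) had day 5 differences of 0.40 to 0.63 with a median of 0.50. The 26 tested genes with a window but without the core had a median of 0.38 and a range of 0.10 to 1.02, so the ranges overlap. For the ETS core the medians were 0.40 in 17 genes with it and 0.43 in 15 without. For CCAAT they were 0.35 in 12 genes with it and 0.46 in 20 without. For the interferon-type motif they were 0.38 in 6 genes with it and 0.44 in 26 without. None of these differences was tested. Htr2b, a serotonin receptor gene on the opposite strand that shares 12934 bases with the span of Psmd1, was at 0.586, 0.467, 0.628 and 0.335 FPKM in control and DTA retina at day 1 and in control and DTA retina at day 5.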
